A study of Danio rerio with 6 samples.

Results

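The genes described here make, release, take up or respond to the inhibitory transmitters GABA and glycine. They were chosen by a rule on gene names that used none of their values, though earlier results of these data were known. The rule took every row of the deposited count table whose lower-case name marks a subunit of a GABAA, GABAB or glycine receptor. It also took 11 named genes for synthesis, breakdown, transport and the postsynaptic scaffold. Rows of these families under capital-letter or other names were not taken, and 5 of them are described at the end. The rule found 42 of 32520 genes, and all 42 had enough counts to be tested. They comprised 31 receptor subunit genes (21 of GABAA receptors, 3 of GABAB receptors and 7 of glycine receptors), 4 genes of synthesis and breakdown, 5 transporter genes and 2 gephyrin genes.

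GABA is made from glutamate by glutamic acid decarboxylase, and both GABA and glycine are loaded into synaptic vesicles by the same vesicular transporter. GABAA and glycine receptors are chloride channels built of 5 subunits around a pore, so the subunits a neuron makes set how it answers the transmitter, while GABAB receptors act through G proteins. In zebrafish, glycine is the main inhibitory transmitter of the hindbrain and spinal cord circuits for swimming, GABA is used throughout the brain and retina, and mutations of the glycine receptor gene glrbb and of the glycine transporter gene slc6a9 are known for their motor defects.

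Polyadenylated RNA came from heads of homozygous srrm4[y712] mutant larvae and, as the comparison, of their wild-type siblings, all zebrafish (Danio rerio) at 3 days post fertilization. The gene srrm4 encodes a factor that promotes inclusion of microexons in neural transcripts, and the study concerned the effect of its mutation on the developing nervous system. Each genotype had 3 libraries, numbered replicate 1, 2 and 3, and nothing in the labels says that these came from separate clutches or animals, so p-values measure only the spread between these samples, which may be technical. The labels name no transgene, drug or treatment, and they do not give the number of heads per library.

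Total counts were 52510621, 85364733 and 98353600 in mutant replicates 1, 2 and 3, and 75932582, 95887087 and 101032166 in the wild-type replicates, of which the 42 genes took between 0.0774% and 0.229%. Reads of srrm4 itself were counted in both genotypes, 843, 5249 and 6286 in the mutant and 954, 5500 and 6071 in the wild-type replicates (log2 fold change with the block described below 0.18 (SE 0.062)), so gene counts do not check the genotype labels. The 2 replicate 1 libraries stood apart from the other 4. The summed level of 10 neuron markers there was 1795 CPM in mutant and 1798 CPM in wild-type heads, against 3082 to 3376 CPM in the other libraries, and the summed level of 18 hox genes of the trunk and tail was 85.8 CPM in mutant and 99.0 CPM in wild-type replicate 1, against 11.0 to 16.0 CPM in the other libraries. CPM values are counts relative to a library's total, after scaling between libraries. These differences run across the genotype comparison. It was therefore fitted both without the replicate number and with it as a term (the replicate block), which compares mutant and wild-type libraries of the same number. For most single genes and for the class medians, only the estimate with the block is given below. Standard errors of the 42 genes were narrower with the block than without it, and they rest on taking equal numbers as pairs.

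**Figure D1:**
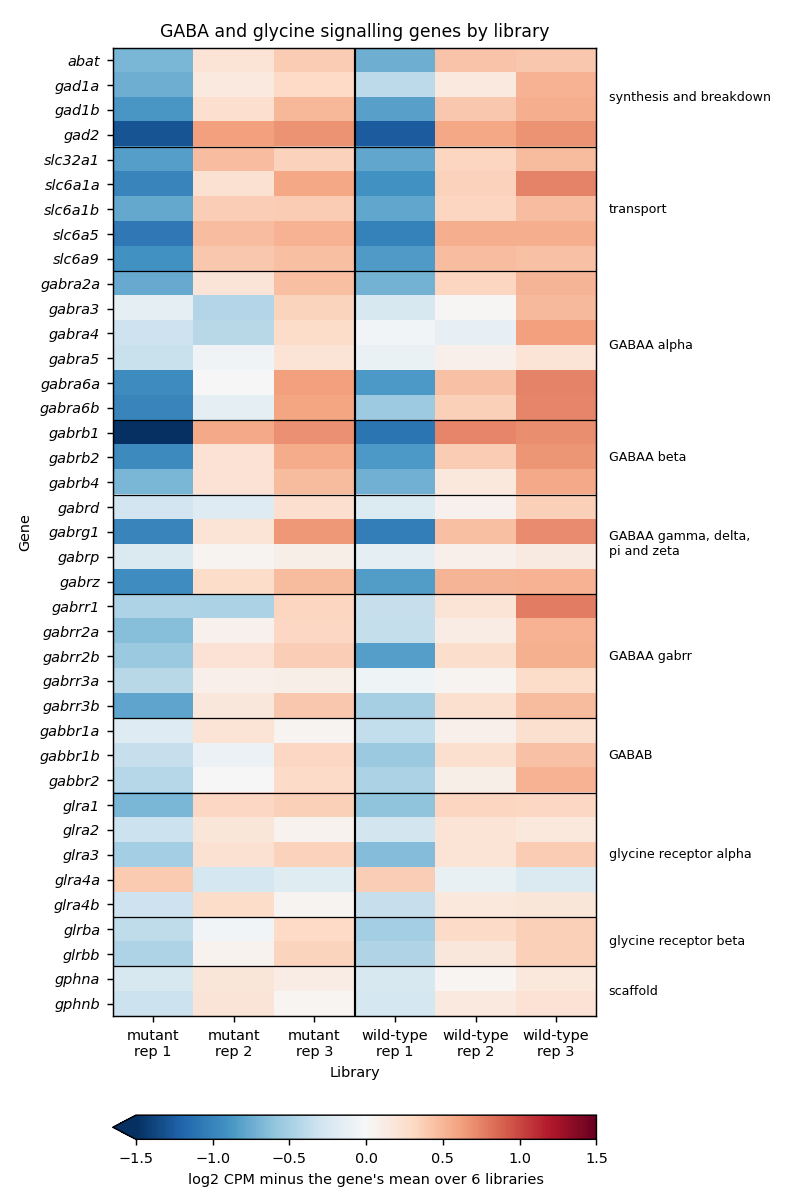
Level of 39 of the genes in each library. Each row is a gene, grouped by class, each column a library (mutant left, wild-type right), and colour gives log2 CPM minus that gene's mean over the 6 libraries. Both replicate 1 columns are the low ones for 35 genes, glra4a is the 1 gene with both replicate 1 libraries above the other 4, and the mutant and wild-type columns overlap for each of the 39.

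Between the genotypes, none of the 42 genes passed the test, and their levels in mutant and wild-type heads overlapped for every one of them. In edgeR's quasi-likelihood test without the block all 42 adjusted p-values were 1, where 0 of the 24765 genes tested were called (0%) and 70 (0.283%) had an unadjusted p under 0.05, none of them among the 42. With the block edgeR also called 0 genes (0%), with adjusted p-values of 0.939 to 0.999 for the 42, limma-voom with the block called 0 genes, and DESeq2 with the block called 17 (0.0686%), none of them among the 42. Of all genes, 2.04% did not overlap between the genotypes (0.945% with the mutant lower and 1.09% with the mutant higher), against 0 of the 42. Both replicate 1 libraries lay below the other 4 for 38 of the 42 genes and above them for 1. In such genes the genotypes must overlap whatever the genotype does, so their overlap says nothing about a difference between genotypes. The estimates themselves lay on the low side. With the block, 39 of the 42 had a lower estimate in mutant heads, where 50.4% of all genes did, and the median log2 fold change (mutant over wild-type) was -0.09, against -0.0010 over all genes. Without the block it was 36 of 42 and a median of -0.10, against 49.8% and 0.0004. An unadjusted p under 0.05 with the block was reached by 8 of the 42, all with lower estimates in the mutant, where 4.60% of all genes reached it in either direction and 2.60% in the lower direction.

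For single genes, the median standard error of a log2 fold change was 0.36 without the block and 0.07 with it. Within pairs of the same replicate number, the median log2 ratio of mutant over wild-type was -0.05, -0.10 and -0.08 for replicates 1, 2 and 3, and 21 of the 42 were lower in all 3 pairs (13.8% of all genes), while 0 were higher in all 3 (13.1%). With the block and 1 pair left out in turn, 37, 37 and 32 of the 42 had lower estimates and the median was -0.09, -0.06 and -0.09. Without the block, leaving out 1 library leaves the replicate numbers unbalanced. The median then turned positive without mutant replicate 1 (0.15), wild-type replicate 2 (0.01) or wild-type replicate 3 (0.10), with 7, 19 and 6 lower estimates, and stood at -0.17 to -0.34 without the other 3 libraries, with 40 or 41. Of the general neuron markers, 5 of 10 had lower estimates with the block (median -0.0015), as had 7 of 11 transcription factor genes of GABAergic interneurons (median -0.02). Lower estimates were found for photoreceptor markers in 8 of 8 (median -0.20) and glutamatergic markers in 4 of 5 (median -0.08). They were also found for 5 of 5 blood markers (median -0.16) and 0 of 7 epidermis markers (median 0.05). The blood markers did not keep 1 direction, with pair medians of -0.48, -0.34 and 0.29 for replicates 1, 2 and 3. The part of these cell types in the estimates was not tested, and in RNA from whole heads fewer cells of a type and less RNA per cell cannot be told apart.

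**Figure D2:**
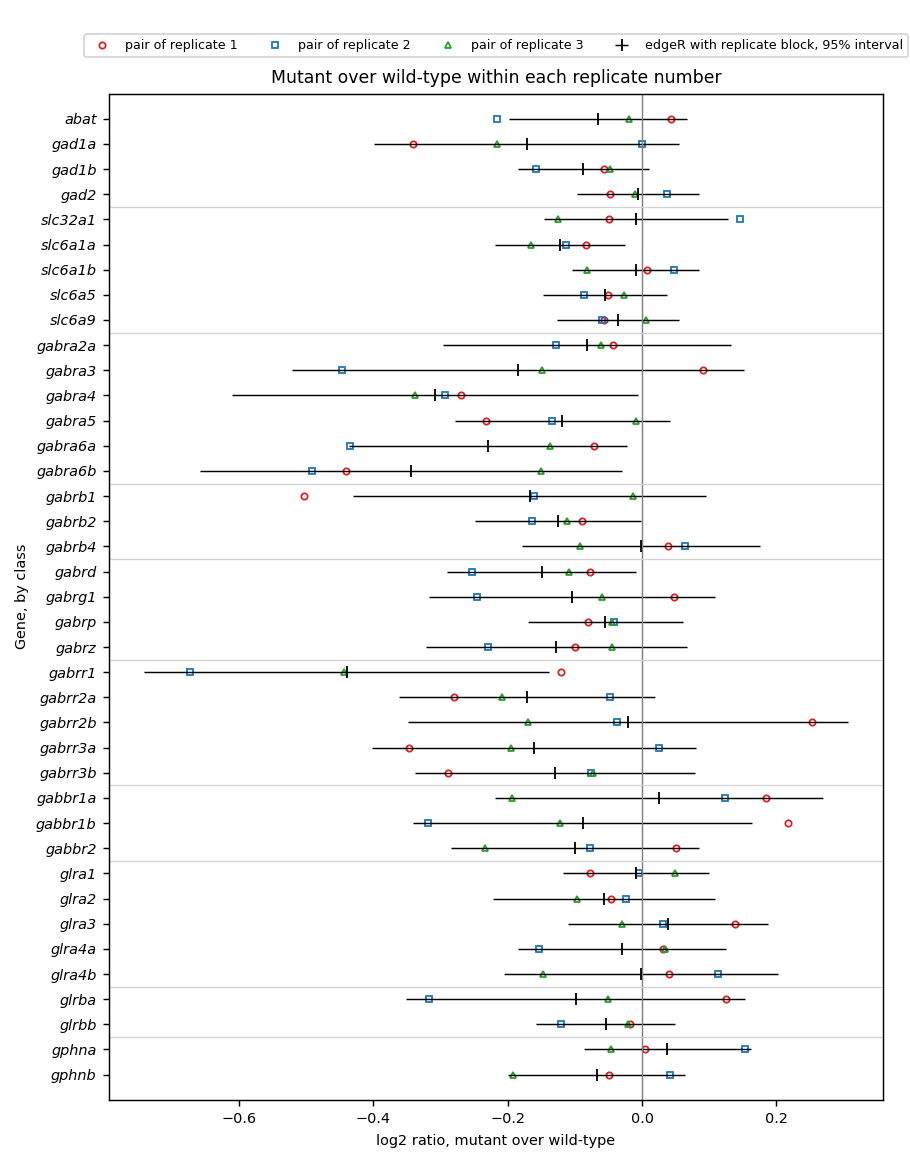
Mutant over wild-type for each of 39 of the genes, on the log2 scale. Coloured symbols give the ratio within the replicate 1, 2 and 3 pairs, black ticks the edgeR estimate with the replicate block and bars its 95% interval; horizontal lines part the classes. Of the black ticks, 36 of 39 lie left of 0, and 19 genes have all 3 symbols left of 0.

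All 4 genes of synthesis and breakdown had lower estimates in mutant heads with the block, with a median of -0.08, near that of the 42 genes. Gad1b and gad2 encode the 2 forms of glutamic acid decarboxylase, GAD67 and GAD65. Gad2 (ENSDARG00000015537) had 53.1, 200.0 and 207 CPM in mutant replicates 1, 2 and 3, against 54.8, 195 and 209 CPM in the wild-type replicates. Within each number the genotypes lay side by side, and both replicate 1 libraries were far below the others. The log2 fold change was -0.0063 (SE 0.038) with the block, with a 95% interval of -0.10 to 0.08, and 0.0055 (SE 0.66) without it (edgeR adjusted p 0.989 and 1). Gad1b (ENSDARG00000027419) had 62.5, 136 and 161 CPM in mutant and 64.9, 152 and 167 CPM in wild-type heads. The mutant library was the lower of each pair, by a margin small beside the gap between replicate 1 and the others, and the log2 fold change with the block was -0.09 (SE 0.041).

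The second GAD67 copy, gad1a, was counted at low levels, 3.33, 6.13 and 6.82 CPM in mutant and 4.22, 6.13 and 7.92 CPM in wild-type heads, with the mutant lower in pairs 1 and 3 and nearly level with the wild-type in pair 2. Its log2 fold change with the block was -0.17 (SE 0.095). Abat, the transaminase that breaks GABA down, had 82.1, 153 and 172 CPM in mutant and 79.7, 178 and 175 CPM in wild-type heads. Mutant replicate 2 stood below wild-type replicate 2 while the other pairs were close, and the estimate with the block was -0.07 (SE 0.056).

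All 5 transporters had lower estimates in mutant heads with the block, with a median log2 fold change of -0.04. Their median SE was 0.04 with the block and 0.48 without it. Slc32a1, which fills synaptic vesicles with GABA and glycine, had 56.9, 139 and 129 CPM in mutant and 58.8, 126 and 140.4 CPM in wild-type heads. The mutant was the higher of pair 2 and the lower of pairs 1 and 3, and the estimate with the block was -0.0087 (SE 0.058), with an interval of -0.15 to 0.13. Slc6a5, the neuronal glycine transporter GlyT2 and a marker of glycinergic neurons, had 38.2, 110.4 and 115 CPM in mutant and 39.5, 117 and 117 CPM in wild-type heads, with an estimate of -0.05 (SE 0.039). Slc6a9 (GlyT1), which clears glycine from the synaptic cleft, had 63.1, 157 and 162 CPM in mutant and 65.5, 164 and 161 CPM in wild-type heads, with an estimate of -0.04 (SE 0.038). The mutant was slightly lower for slc6a5 in each pair, at log2 ratios of -0.05, -0.09 and -0.03. For slc6a9 the ratios were -0.06, -0.06 and 0.0064.

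The GABA transporter GAT1 has 2 copies in zebrafish. Slc6a1b had 157, 346 and 347 CPM in mutant and 156, 335 and 367 CPM in wild-type heads, with an estimate of -0.0094 (SE 0.040) with the block and no shared direction among the pairs. Slc6a1a had 34.2, 79.5 and 101 CPM in mutant and 36.3, 86.0 and 114 CPM in wild-type heads, and the mutant was lower in each pair, at log2 ratios of -0.08, -0.11 and -0.17. Its log2 fold change was -0.12 (SE 0.041) with the block, with an unadjusted edgeR p of 0.0207 and an adjusted p of 0.939, and -0.13 (SE 0.53) without it.

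**Figure D3:**
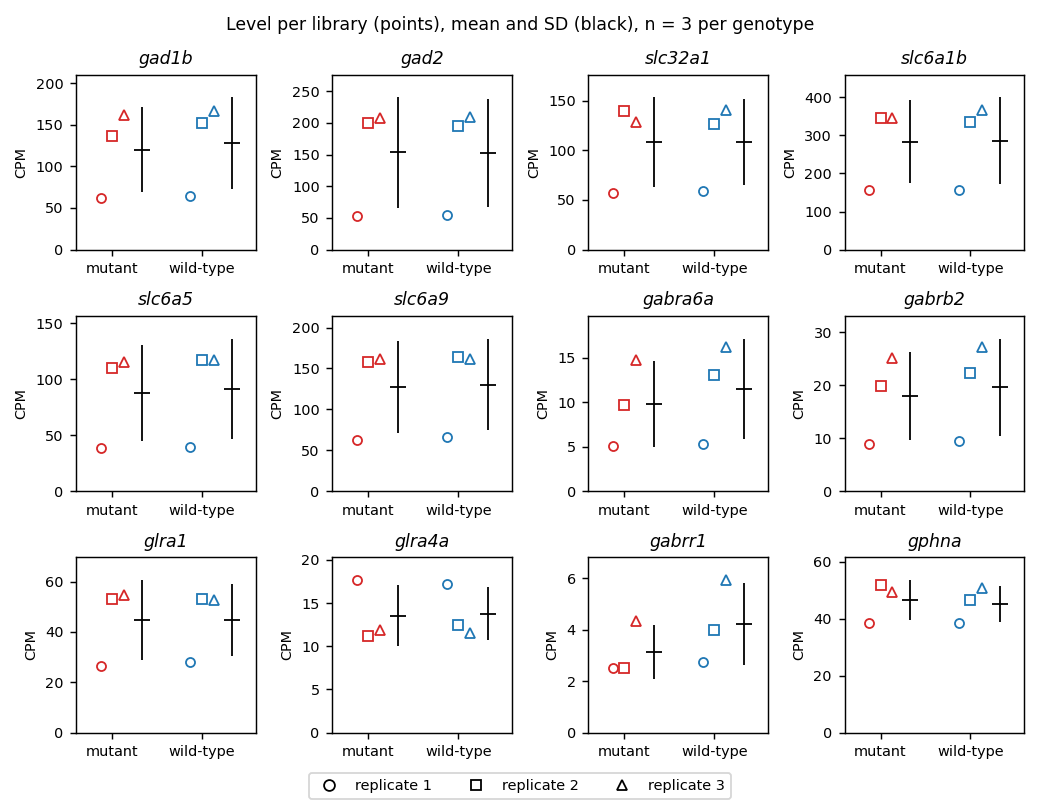
Levels in CPM of 12 of the genes in each library, mutant left and wild-type right in each panel. Circles, squares and triangles are replicates 1, 2 and 3, and the black bar is the mean ± SD of 3 libraries. In gad2 the replicate 1 libraries hold 53.1 and 54.8 CPM and the others 195 to 209 CPM; in glra4a they are the highest, at 17.6 and 17.3 CPM.

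GABAA receptor subunits are 21 of the 42 genes, without the rows of this family that stand under other names. With the block 21 of 21 had lower estimates in mutant heads, with a median log2 fold change of -0.13 and pair medians of -0.10, -0.16 and -0.09, and 15 of 21 were lower in all 3 pairs. Without the block 21 of 21 again had lower estimates in edgeR, but 6, 13 and 5 did when mutant replicate 1, wild-type replicate 2 or wild-type replicate 3 was left out. With the block, 21, 21 and 18 of 21 were lower in edgeR without the replicate 1, 2 or 3 pair. DESeq2 with the block gave 20 of 21 and limma-voom with the block 21. Limma-voom and limma on the deposited normalized values, both without the block, gave 19 of 21. The class medians with the block were -0.18 for 7 alpha subunits and -0.12 for 4 beta subunits. They were -0.13 for the 5 gamma, delta, pi and zeta subunits and -0.16 for the 5 subunits encoded by gabrr genes. Of the other receptor classes, GABAB subunits stood at -0.09, glycine receptor alpha subunits at -0.01 and glycine receptor beta subunits at -0.08. Synthesis and breakdown stood at -0.08, transport at -0.04 and gephyrin at -0.01. Members of a class are not replicates, and the difference between classes was not tested.

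Alpha subunits form the GABA binding site together with beta subunits. Gabra5 had 9.93, 12.03 and 14.4 CPM in mutant and 11.7, 13.2 and 14.5 CPM in wild-type heads, with an estimate of -0.12 (SE 0.067), and log2 ratios of -0.23, -0.13 and -0.0087 in pairs 1, 2 and 3. The 2 copies of the alpha-6 gene, whose mammalian counterpart is typical of cerebellar granule cells, had lower values in each pair. Gabra6a had 5.03, 9.69 and 14.7 CPM in mutant and 5.29, 13.1 and 16.2 CPM in wild-type heads, and its log2 fold change with the block was -0.23 (SE 0.087) and its adjusted p in edgeR 0.939. Gabra6b had 1.09, 1.96 and 3.24 CPM in mutant and 1.48, 2.76 and 3.60 CPM in wild-type heads, with an estimate of -0.34 (SE 0.13) and the same adjusted p. Both copies were lowest in replicate 1 and highest in replicate 3 of each genotype, so the genotypes overlapped widely.

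Gabra4, which in mammals joins receptors outside synapses, had 1.53, 1.42 and 2.29 CPM in mutant and 1.85, 1.75 and 2.89 CPM in wild-type heads. The 3 pair ratios were nearly equal, at -0.27, -0.29 and -0.34. The log2 fold change was -0.31 (SE 0.13) with the block, with an unadjusted edgeR p of 0.047 and an adjusted p of 0.939, and -0.31 (SE 0.30) without it. Of the other alpha subunits, gabra2a stood at -0.08 (SE 0.090) and gabra3 at -0.18 (SE 0.14), the second with mutant and wild-type in opposite order between pairs.

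Of the 4 beta subunits, 3 were lower in each pair. Gabrb2 had 8.84, 19.9 and 25.1 CPM in mutant and 9.41, 22.3 and 27.1 CPM in wild-type heads. Each mutant library was slightly below the wild-type library of its number, and replicate 1 of either genotype was far below the rest. The estimate with the block was -0.12 (SE 0.052), with an unadjusted edgeR p of 0.0481 and an adjusted p of 0.939, and without the block it was -0.13 (SE 0.50). Gabrb1 had 1.35, 6.08 and 6.61 CPM in mutant and 1.93, 6.80 and 6.67 CPM in wild-type heads, with its widest genotype gap in the replicate 1 pair, where counts were 61 in mutant and 126 in wild-type. Gabrb4 stood at -0.0019 (SE 0.075).

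Of the other channel subunits, gabrd, whose mammalian counterpart sits outside synapses and senses low GABA, had 13.7, 14.6 and 19.9 CPM in mutant and 14.4, 17.4 and 21.4 CPM in wild-type heads. The mutant was lower in each pair, and the estimate with the block was -0.15 (SE 0.059), with an unadjusted edgeR p of 0.0405 and an adjusted p of 0.939. Gabrp, the pi subunit, known from epithelia in mammals, was nearly level at 17.9, 21.3 and 22.1 CPM in mutant and 18.9, 21.9 and 22.8 CPM in wild-type heads, with an estimate of -0.05 (SE 0.049). Gabrg1 and gabrz, the zeta subunit, stood at -0.10 (SE 0.090) and -0.13 (SE 0.082).

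The gabrr genes encode subunits of GABA channels best known from retinal bipolar cells. Gabrr1 (ENSDARG00000043902) had the smallest p of the 42 genes, with 2.53, 2.50 and 4.35 CPM in mutant and 2.75, 4.01 and 5.92 CPM in wild-type heads. The mutant was lower in each pair, at log2 ratios of -0.12, -0.67 and -0.44, but mutant replicate 3 was above wild-type replicates 1 and 2. The log2 fold change was -0.44 (SE 0.13) with the block, with a 95% interval of -0.74 to -0.14, an unadjusted edgeR p of 0.0109 and an adjusted p of 0.939, and -0.43 (SE 0.36) without the block. Gabrr2a had 4.68, 7.64 and 9.04 CPM in mutant and 5.68, 7.90 and 10.4 CPM in wild-type heads, and gabrr3b had 3.15, 6.09 and 7.16 CPM in mutant and 3.85, 6.42 and 7.53 CPM in wild-type heads. Their estimates were -0.17 (SE 0.080) and -0.13 (SE 0.088), those of gabrr3a and gabrr2b -0.16 (SE 0.10) and -0.02 (SE 0.14). Among retinal markers, the photoreceptor list had pair medians of -0.10, -0.38 and -0.09, and its summed level was 1270 to 3027 CPM in mutant and 1365 to 3293 CPM in wild-type heads. The list of bipolar and amacrine cells had a median of 0.0039 with the block, with 4 of 8 lower, and a summed level of 463 to 826 CPM in mutant and 470 to 800 CPM in wild-type heads. The photoreceptor list and gabrr1 had their widest genotype gap in pair 2. The other 4 gabrr genes had theirs in pair 1. There the mutant was lower for gabrr2a, gabrr3a and gabrr3b and higher for gabrr2b (log2 ratio 0.25). The pair medians of the 5 gabrr genes were -0.28, -0.05 and -0.19. The part of retinal cells in the gabrr estimates was not tested.

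GABAB receptors pair a GABA-binding subunit (gabbr1a or gabbr1b) with a G protein coupling subunit (gabbr2), and their 3 genes gave no shared direction between pairs. Gabbr1b had 18.5, 22.1 and 29.1 CPM in mutant and 15.9, 27.5 and 31.6 CPM in wild-type heads, with the mutant higher in pair 1 and lower in pairs 2 and 3. Gabbr2 had 7.07, 9.53 and 11.6 CPM in mutant and 6.83, 10.1 and 13.6 CPM in wild-type heads. The estimates with the block were -0.09 (SE 0.10), -0.10 (SE 0.078) and, for gabbr1a, 0.03 (SE 0.10).

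Of the 7 glycine receptor genes, 6 had lower estimates in mutant heads in edgeR with the block, with a median of -0.03, and 2 of 7 were lower in all 3 pairs. DESeq2 and limma-voom, both with the block, gave 5 of 7, and edgeR without the block gave 4 of 7, with a median of -0.02. With the block and the replicate 1, 2 or 3 pair left out, edgeR gave 5, 4 and 5 of 7. Glra1, which encodes an alpha subunit that binds glycine, had 26.6, 53.0 and 54.6 CPM in mutant and 28.0, 53.2 and 52.8 CPM in wild-type heads, with an estimate of -0.0088 (SE 0.045) and an interval of -0.12 to 0.10. Glrbb, one of 2 copies of the beta subunit, which ties the receptor to gephyrin, had 44.1, 63.3 and 77.0 CPM in mutant and 44.7, 68.8 and 78.1 CPM in wild-type heads, with an estimate of -0.05 (SE 0.043). For both genes the pairs differed by less than the gap between replicates 1 and 2. Glra4a had 17.6, 11.2 and 11.8 CPM in mutant and 17.3, 12.4 and 11.6 CPM in wild-type heads, with an estimate of -0.03 (SE 0.065). Of the others, glra2 stood at -0.06 (SE 0.070), glra3 at 0.04 (SE 0.063), glra4b at -0.0016 (SE 0.086) and glrba at -0.10 (SE 0.11).

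Gephyrin anchors glycine receptors and many GABAA receptors under the membrane, and it also makes the molybdenum cofactor. Gphna had 38.6, 51.7 and 49.4 CPM in mutant and 38.5, 46.5 and 50.9 CPM in wild-type heads, and gphnb had 34.8, 49.4 and 44.3 CPM in mutant and 36.0, 48.0 and 50.6 CPM in wild-type heads. The estimates with the block were 0.04 (SE 0.052) and -0.07 (SE 0.055), in opposite directions, and neither copy kept 1 direction over the pairs.

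These genes varied more with the replicate number than with the genotype. As a description with no test, log2 CPM of replicate 1 was set against the mean of replicates 2 and 3 in each genotype. The median over the 42 genes was -0.95 in mutant and -0.91 in wild-type heads, against -0.0048 and -0.01 over all genes tested. At least 2-fold lower in replicate 1 in both genotypes were 17 of the 42, where 5.01% of all genes were, and 41 were lower there in both genotypes (44.3% of all genes), 1 higher (43.2%). Both replicate 1 libraries lay below the other 4 for 38 of the 42, where 35.0% of all genes did so and 33.7% did the opposite. Replicate 1 was 2-fold lower for 12 genes when set against replicate 2 alone and for 19 when set against replicate 3 alone. The share over all genes is not given for these counts against single replicates.

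The classes differed in how many of their genes were at least 2-fold lower in replicate 1, a difference that was not tested. All 5 transporters, all 4 beta subunits, 4 of 7 alpha subunits, 2 of 5 in the gamma, delta, pi and zeta class and 2 of the 4 genes of synthesis and breakdown were at least 2-fold lower in both genotypes, against 0 of 5 gabrr, 0 of 3 GABAB, 0 of 7 glycine receptor and 0 of 2 gephyrin genes. This cut can part classes with close medians. The gabrr genes had medians of -0.83 in mutant and -0.82 in wild-type heads, and the gamma, delta, pi and zeta class had -0.95 and -0.90. By the mean of the genotypes, the lowest log2 ratios were those of gabrb1 (-2.21 in mutant and -1.79 in wild-type heads), gad2 (-1.94 in mutant and -1.88 in wild-type heads) and slc6a5 (-1.56 in mutant and -1.57 in wild-type heads). Their levels in each library are given above, and for each of them replicate 1 was the lowest library of either genotype. By the same mean, the highest ratios were those of glra4a (0.62 in mutant and 0.53 in wild-type heads), gabra4 (-0.23 in mutant and -0.28 in wild-type heads) and gabrp (-0.28 in mutant and -0.24 in wild-type heads). Glra4a was thus the 1 gene of the 42 that was higher in both replicate 1 libraries, while the other glra genes stood between -1.02 and -0.43.

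In the same measure the neuron markers had medians of -0.75 in mutant and -0.77 in wild-type heads, glutamatergic markers -0.69 and -0.72, and photoreceptor markers -1.09 and -1.14. The transcription factor genes of GABAergic interneurons had medians of -0.39 and -0.24, closer to 0 than the 4 synthesis and breakdown genes (-1.11 and -1.22) or the 5 transporters (-1.34 and -1.31). Among these transcription factor genes, ptf1a is also in the list of bipolar and amacrine cells of the retina. Skeletal muscle markers stood at 2.10 in both genotypes and the 14 trunk and tail hox genes that passed the filter at 2.28 and 2.93. The part of tissue composition, stage or RNA quality in these differences was not tested. Replicate 3 was above replicate 2 in both genotypes for 30 of the 42 genes (33.5% of all genes) and for 20 of 21 GABAA subunits, but for 2 of 5 transporters and 3 of 7 glycine receptor subunits. The median log2 ratio of replicate 3 over replicate 2 was 0.27 in mutant and 0.27 in wild-type heads for the GABAA subunits. It was 0.74 and 0.45 for photoreceptor markers and 0.18 and 0.15 for glutamatergic markers. GABAB genes stood at 0.28 and 0.20, and glycine receptor beta genes at 0.31 and 0.13. Closer to level were transporters (0.04 and 0.13), glycine receptor alpha genes (0.04 and -0.01) and neuron markers (0.05 and 0.13).

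**Figure D4:**
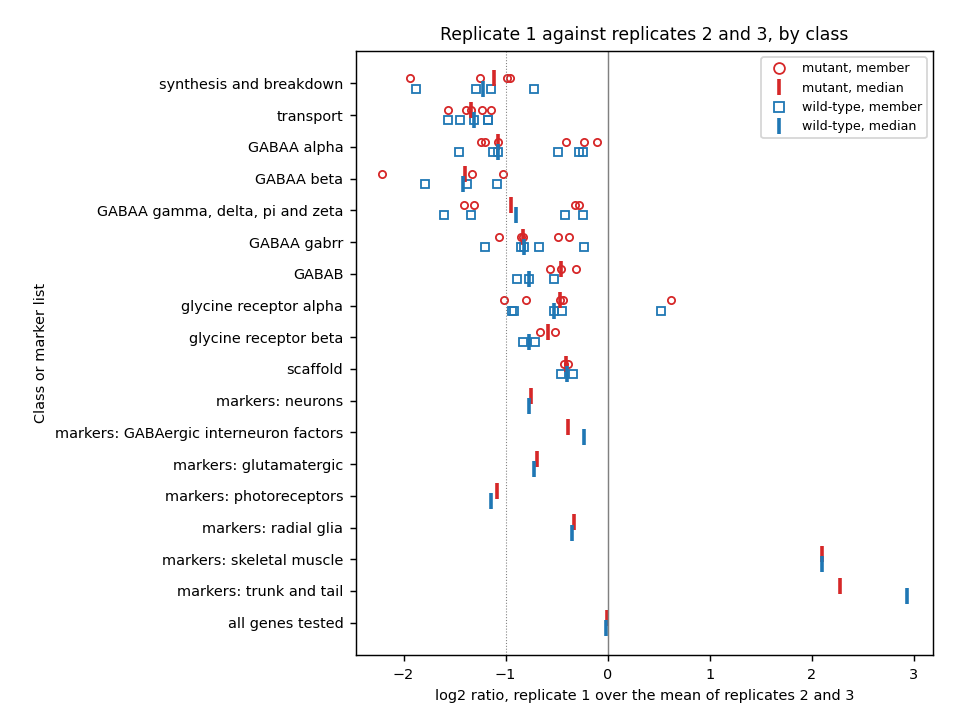
Replicate 1 over the mean of replicates 2 and 3, on the log2 scale, in mutant (red) and wild-type (blue) heads. Open symbols are 39 single genes by class and vertical ticks are medians over all genes of a class, also for marker lists and all genes tested; the dotted line marks a 2-fold lower level. Transport and beta subunit genes all lie left of the dotted line, glycine receptor, GABAB and gephyrin genes lie mostly between it and 0, and the muscle and trunk markers lie at 2.10 to 2.93.

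Many GABAA subunit genes sit beside each other in the genome. In the RefSeq gene order of GRCz12tu, another assembly than the GRCz11 of the counts and taken for order alone, 41 of the 42 genes had a chromosome, spread over 20 chromosomes, and 14 of them formed 6 groups with at most 2 coding genes between members. Each group joins GABAA subunits, among them gabra3 and gabrb4 on chromosome 21, gabra2a, gabrb1 and gabrg1 on chromosome 13, gabra6a and gabrb2 on chromosome 14, and gabrr1 and gabrr2b on chromosome 20. Neighbours did not always have like values. In the replicate 1 measure, gabra3 had -0.10 in mutant and -0.49 in wild-type heads, while its neighbour gabrb4 had -1.03 in mutant and -1.08 in wild-type heads. In the chromosome 13 group all 3 genes were low, gabra2a at -1.07 in mutant and -1.12 in wild-type heads, gabrg1 at -1.41 in mutant and -1.61 in wild-type heads and gabrb1 as given above. Between genotypes, gabrr1 and gabrr2b had estimates with the block of -0.44 and -0.02. Only glra4b lay on chromosome 5, which also holds srrm4, and its estimate with the block was -0.0016.

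Zebrafish kept 2 copies of many of these genes, and 9 pairs of a and b copies were measured. The share of a pair's counts that fell on the a copy does not depend on how libraries are scaled, although it is not corrected for transcript length, so it says nothing of which copy is more abundant. None of the 9 shares passed an exact 2-sided permutation test between the genotypes, whose smallest possible p with 3 against 3 libraries is 0.1. The smallest p was 0.2, for gphna, which took 52.2% ± 0.884 of the gephyrin counts in mutant and 50.4% ± 1.24 in wild-type heads (SD, n = 3 each; exact permutation adjusted p 0.9 over the 9 pairs). Within replicate numbers, 4 of the 9 shares differed with 1 sign in all 3 pairs: mutant minus wild-type was 0.935, 1.92 and 2.53 percentage points for gphna, -0.947, -1.75 and -1.03 for slc6a1a, 4.14, 0.594 and 0.141 for gabra6a, and -5.83, -0.122 and -0.442 for gabrr2a. An exact sign-flip permutation test over the 3 pairs gave p = 0.25 for each of these, the smallest it can give, and an adjusted p of 0.562 over the 9 pairs. Replicate 1 of both genotypes had a higher share of the a copy than the other 4 libraries in 3 pairs and a lower one in 0. Glra4a took 76.6%, 58.0% and 63.3% of its pair's counts in mutant replicates 1, 2 and 3 and 76.7%, 62.4% and 60.3% in the wild-type replicates. Gabrr3a took 54.5%, 46.4% and 42.6% in mutant and 55.5%, 44.7% and 44.7% in wild-type heads. Gad1a took 5.05%, 4.30% and 4.06% in mutant and 6.10%, 3.88% and 4.54% in wild-type heads. How reads that match both copies were counted is not given in the sources used here.

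**Figure D5:**
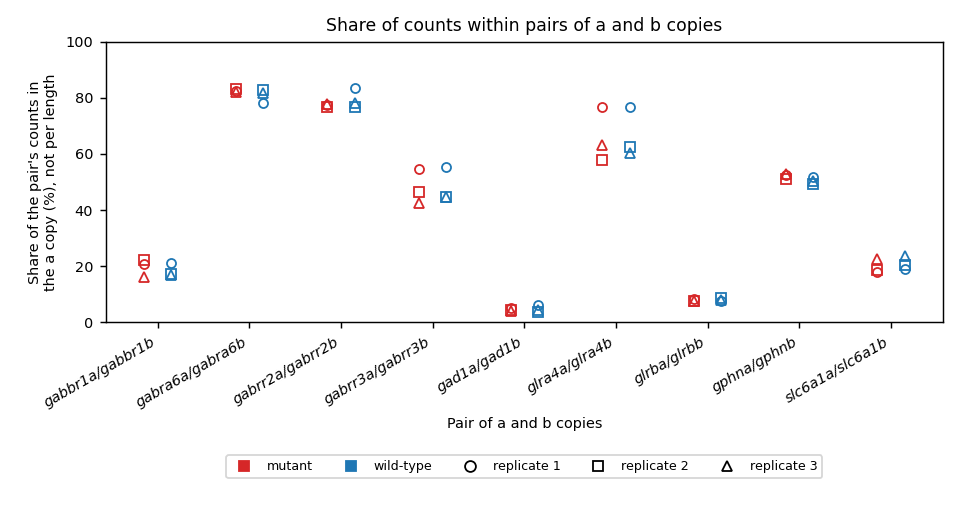
Share of each pair's counts on the a copy, in percent, for 9 pairs, in mutant (red, left) and wild-type (blue, right) libraries, with circles, squares and triangles for replicates 1, 2 and 3. Shares overlap between genotypes in all 9 pairs, and the circles stand above the other symbols in glra4a/glra4b and gabrr3a/gabrr3b, at 76.6% and 76.7% and at 54.5% and 55.5%.

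Of 74 other genes that handle GABA, glycine and chloride or place their receptors, none passed the test either (edgeR, with and without the block), with 4 of 74 at an unadjusted p under 0.05 with the block, where 4.60% of all genes were, a share near the background. Lower estimates with the block were found for 48 of the 74, with a median of -0.02. By role, chloride transporters, exchangers and channels had 10 of 12 lower (median -0.07). Other transporters of GABA, taurine, glycine and related solutes had 7 of 12 (-0.03). Enzymes of GABA metabolism and glutamine supply had 8 of 12 (-0.02), glycine synthesis and cleavage 5 of 7 (-0.03) and receptor placement 18 of 31 (-0.0089). The 4 genes with the smallest p with the block were a GABA transporter, 2 bicarbonate transporters and an aldehyde dehydrogenase. Slc6a11b, a GABA transporter, had 52.4, 58.6 and 69.9 CPM in mutant and 55.9, 70.1 and 74.5 CPM in wild-type heads, and its estimate was -0.15 (SE 0.049). The other copy, slc6a11a, went the opposite way, at 0.12 (SE 0.076) and higher in each pair. Slc4a3, which exchanges chloride for bicarbonate, had 3.88, 4.96 and 8.54 CPM in mutant and 4.38, 6.92 and 9.21 CPM in wild-type heads, with an estimate of -0.26 (SE 0.10). Slc6a11b and slc4a3 were lower in each pair with overlapping genotypes, as was slc4a10b, a sodium-coupled bicarbonate transporter, at -0.14 (SE 0.058). Aldh9a1a.2, of a family that in mammals can make GABA from an aldehyde, stood at 0.32 (SE 0.13), higher in each pair, with 8.16, 1.81 and 2.29 CPM in mutant and 7.01, 1.64 and 1.51 CPM in wild-type heads. Slc12a5b, a copy of the chloride extruder KCC2 that makes GABA and glycine inhibitory, was named after its values were seen. It had 21.0, 52.7 and 75.7 CPM in mutant and 21.4, 58.6 and 77.3 CPM in wild-type heads, with an estimate of -0.07 (SE 0.046). The other KCC2 copy, slc12a5a, stood at 0.03 (SE 0.087). Glula and glulb of this list are also markers in the radial glia list.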

How the data were processed

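The deposited tables of the authors hold raw counts for each Ensembl gene and a normalized signal, which equals the counts divided by 1 size factor per library (largest difference 0.173). The submitters' processing notes list, with no roles, STAR 2.7.3, featureCounts 1.6.4, Subread, DESeq2 and GRCz11. Neither strand setting nor annotation release is given in the sources used here. Libraries were made with a stranded kit after RNA isolation with 1 of 2 kits, per the labels' protocols, which do not say which library had which.

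Counts were tested in edgeR 4.0.16 (R 4.3.3), mutant against wild-type, with TMM factors, filterByExpr, which kept 24765 of 32520 genes, the robust quasi-likelihood F test, 2-sided, and Benjamini-Hochberg adjustment over all genes (threshold 0.05). Standard errors were taken from the F statistic. Log2 CPM used a prior count of 2. Alternatives used DESeq2 1.42.0, limma 3.58.1, the replicate block, other scalings and filters, and fits without a library or pair. The edgeR fits with and without the block were run on simulated counts with changes of 2-fold or more. Changes as small as the estimates of the 42 genes were not simulated. The replicate numbers come from the labels and were taken as pairs. Mutant and wild-type libraries of number 1, 2 and 3 deviated together from their genotypes' means (correlations 0.863, 0.579 and 0.744). Unlike numbers 2 and 3 also did, less closely (0.365 for mutant 2 with wild-type 3, 0.418 for mutant 3 with wild-type 2). Number 1 with number 2 or 3 gave -0.73 to -0.581. Deviations from a mean cancel out within a genotype. With replicate 1 apart, these negative values and part of the positive ones therefore follow from replicate 1, and the correlations alone do not establish the pairs. The members, gene lists and tests were chosen with earlier results of these data known. Values in every library are given for synthesis, transport and scaffold genes, for the 2 genes of each receptor class with the highest mean CPM (1 in a class of 2), for the 5 with the smallest p with the block and for the 3 lowest and 3 highest in replicate 1, but 3 of the 42 genes enter the counts and medians and are not reported singly here. Of 81 other pathway names 74 matched a row.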

Additional observations from a re-analysis of the deposited data

How the results depend on the processing

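The number of genes called stayed at 0 except for 17 in DESeq2 with replicate block and 2 in edgeR with replicate block without the replicate 2 pair (0 to 2 over all fits that left out a library or pair), and 0 of the 42 were called in any fit. The replicate block changed no other call. The transport median was -0.056 in limma-voom. Gad2, at 0.0055 in edgeR without the block, stood at -0.0063 with the replicate block, -0.042 in limma-voom, -0.0029 in limma on log2 of the deposited normalized values and -0.0014 in both DESeq2 and limma-voom with the block. Slc32a1 turned positive with RLE factors and in DESeq2, at 0.0052 in each. Glra1, at 0.0021, stood at -0.0088 with the replicate block, -0.0005 with library totals only, -0.0101 in limma-voom, -0.0072 in limma on the normalized values and -0.0044 in DESeq2 with the block. Library totals as the only scaling put the replicate 1 median of the 42 at -1.26 in place of -0.93. The median of all genes was then -0.33. With this scaling 24 of the 42 and 2739 of all 24765 genes tested were 2-fold lower, against 17 and 1240 with the main scaling. The counts of lower estimates and the comparison of replicate 1 with single replicates, and for the shares the paired test and the omission of single libraries, were added after seeing the data. Shares per length were not run, for lack of transcript lengths.

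Leaving out 1 library or 1 pair gave these lowest and highest values. Of the 42 genes, 6 to 41 had lower estimates and the median ranged from -0.34 to 0.15 (other pathway genes -0.073 to 0.031). Class medians ranged from -0.38 to 0.20 (synthesis and breakdown), -0.35 to 0.29 (transport), -0.41 to 0.059 (alpha), -0.46 to 0.25 (beta), -0.39 to 0.13 (gamma, delta, pi and zeta), -0.36 to 0.071 (gabrr), -0.33 to 0.15 (GABAB), -0.19 to 0.14 (glycine receptor alpha), -0.29 to 0.092 (glycine receptor beta) and -0.13 to 0.11 (scaffold). Of 31 genes refitted singly here (the members with values in every library and 4 pathway genes), those that changed sign were abat (-0.37 to 0.18), gad1a (-0.37 to 0.086), gad1b (-0.41 to 0.22), gad2 (-0.40 to 0.41), slc32a1 (-0.30 to 0.31), slc6a1a (-0.48 to 0.23), slc6a1b (-0.31 to 0.28), slc6a5 (-0.41 to 0.30), slc6a9 (-0.35 to 0.29), gabra5 (-0.26 to 0.0095), gabra6a (-0.64 to 0.096), gabrb1 (-0.51 to 0.30), gabrb2 (-0.46 to 0.20), gabrd (-0.33 to 0.012), gabrp (-0.13 to 0.032), gabrr2a (-0.38 to 0.071), gabrr3b (-0.36 to 0.16), gabbr1b (-0.35 to 0.096), gabbr2 (-0.33 to 0.15), glra1 (-0.24 to 0.27), glra4a (-0.26 to 0.17), glrbb (-0.26 to 0.13), gphna (-0.064 to 0.16), gphnb (-0.20 to 0.062), slc4a3 (-0.63 to 0.039), aldh9a1a.2 (-0.71 to 1.36) and slc4a10b (-0.34 to 0.053). The mutant minus wild-type share of the a copy ranged from -3.77 to 3.15 percentage points for gabrr3a, -0.845 to 0.264 for gad1a, -5.85 to 4.60 for glra4a, -0.382 to 0.105 for glrba and -2.68 to 0.0891 for slc6a1a. Without the block, leaving out 1 library leaves replicate 1 unbalanced between the genotypes. The lowest counts, down to 49 in 1 library, limit the precision of single genes. The cause of the other changes of sign was not tested.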

Other observations

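Rows of the same gene families stand in the count table under other names and were therefore not among the 42 genes. Matched by identifier, CR407584.1 is listed as gabrg3 and zgc:163121 as gad3 in the name table, and GABRA2, GABRB2 (1 of many) and GABRR1 (1 of many) carry the human symbols in the counts. GABRA2 had 5.50, 9.86 and 11.6 CPM in mutant and 6.75, 10.6 and 12.4 CPM in wild-type heads, lower in each pair, with a log2 fold change of -0.15 (SE 0.074) with the block. GABRR1 (1 of many) had 12.12, 9.16 and 9.28 CPM in mutant and 12.9, 8.98 and 9.60 CPM in wild-type heads. It was thus highest in both replicate 1 libraries, unlike the 5 gabrr genes described above, and its estimate was -0.03 (SE 0.065). The row listed as gad3 had 4.06, 3.09 and 6.11 CPM in mutant and 5.32, 3.20 and 3.37 CPM in wild-type heads, with an estimate of 0.17 (SE 0.26). GABRB2 (1 of many) and CR407584.1 stood at -0.07 (SE 0.13) and 0.12 (SE 0.25). None of the 5 passed edgeR's test with or without the block.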
